A study of Mus musculus with 6 samples.

Results

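The genes of haem breakdown and iron handling were followed in cultured mouse macrophages exposed to oxidised low-density lipoprotein (oxLDL), the modified lipoprotein that turns macrophages into foam cells. The 10 genes were chosen by symbol from the 24054 genes of the tables: Hmox1, Blvra, Blvrb, Slc48a1, Slc40a1, Fth1, Ftl1, Tfrc, Slc11a1 and Slc11a2. All 10 were present and passed the filter on low counts. The cells were macrophages derived from the bone marrow of C57BL/6 wild-type mice, grown for 7 days in medium conditioned by L929 cells, a fibroblast line that secretes the macrophage growth factor CSF1. They were then kept for 24 hours with 50 µg/ml oxLDL (3 libraries) or without it (3 libraries). Both groups therefore shared strain, genotype, culture and timing, and differed in oxLDL alone as far as the labels say. The titles number the libraries of each group 1, 2 and 3, and libraries with the same number are called a pair here.

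Macrophages recycle iron. They take up haem from dying red cells, and Slc48a1 (HRG1) carries it from the lysosome into the cytosol, where haem oxygenase 1, the product of Hmox1, opens the ring and frees iron, carbon monoxide and biliverdin. Biliverdin reductases A and B (Blvra, Blvrb) reduce biliverdin to bilirubin. The iron is stored in ferritin, a cage of heavy (Fth1) and light (Ftl1) chains, or leaves the cell through ferroportin (Slc40a1). Iron also enters on transferrin through the transferrin receptor (Tfrc), and Slc11a2 (DMT1) and Slc11a1 (NRAMP1) move divalent metal ions out of endosomes and phagosomes. C57BL/6 mice are known to carry an inactive form of the Slc11a1 protein, so in these cells the Slc11a1 transcript does not stand for transport activity.

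Part of this set is known to be controlled after transcription, through iron-responsive elements (IREs), short RNA hairpins bound by the iron regulatory proteins IRP1 and IRP2. In the 5′ UTR of ferritin and ferroportin mRNA a bound IRE blocks translation, which RNA counts do not show. In the 3′ UTR of Tfrc mRNA bound IREs protect the transcript from decay. The elements are shown because their place differs between members. In a 5′ UTR this control acts on translation, and in the 3′ UTR of Tfrc on mRNA decay. The mRNA level of Tfrc does not measure this control alone. The pattern searched on the sense strand was CNNNNNCAGUGNNNNNN, 17 bases with a bulged C and the loop CAGUGN, in which the 5 bases on each side of the loop had to pair (G-U pairs allowed). The longest protein-coding transcript of each gene in GENCODE M21 (GRCm38) was read, and the sites are given with 6 bases on either side, with the loop in capitals.
Slc40a1 5′ UTR: caacuucagcuaCAGUGUuagcuaaguuu
Fth1 5′ UTR: uuccugcuucaaCAGUGCuugaacggaac
Ftl1 5′ UTR: gucuugcuucaaCAGUGUuugaacggaac
Tfrc 3′ UTR, site 1: aauuaucggaagCAGUGCcuuccauaauu
Tfrc 3′ UTR, site 2: cauuaucgggagCAGUGUcuuccauaaug
Tfrc 3′ UTR, site 3: cuauaucggagaCAGUGAucuccauaugu
Tfrc 3′ UTR, site 4: aauuaucgggaaCAGUGUuucccauaauu

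The 3 sites in 5′ UTRs lie at chr1:45925465-45925493 on the minus strand (Slc40a1), chr19:9982732-9982760 on the plus strand (Fth1) and chr7:45459779-45459807 on the minus strand (Ftl1). The Tfrc sites lie on the plus strand, from chr16:32631219-32631247 for site 1 to chr16:32631710-32631738 for site 4. These positions come from the match to GRCm38 and not from the deposited tables. Such a match occurred in 0.101% of the 20724 5′ UTRs and in 0.559% of the 20914 3′ UTRs of mouse coding genes, which differ in length, and 1 of those 3′ UTRs held at least 4 matches, that of Tfrc. The other 6 members, Slc11a2 among them, had no match, which says only that these letters and pairings were not found in the transcript read. An element of another shape, or in another transcript of the gene, would be missed. The search therefore does not place these genes outside this control. Promoter sequences in RefSeq (GRCm38.p6, 250 bases before to 50 after the start) were found for 6 of the 10 members, with 9 starts. Those of Hmox1, Slc48a1, Slc40a1 and Slc11a2 were not analysed here. The core letters of the antioxidant response element, TGACNNNGC on either strand, occurred in 1 of these 9 promoters, that of Blvra, and in 12.4% of all promoters. The AP-1 letters TGANTCA, which can overlap the core, occurred in 0 of the 9 and in 7.81% of all. A promoter without a match lacked these letters in the stretch read, and sites further from the start were not searched.

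Levels below are the deposited CPM, counts scaled to a common library size after TMM factors. Totals ran from 13546572 to 15559310 expected counts per library. The libraries numbered 3 stood apart: in log2 CPM across genes, untreated library 3 correlated with untreated libraries 1 and 2 at r = 0.889 and 0.898, while those 2 correlated at 0.984. Xist, the RNA that silences an X chromosome in female cells, measured 344 to 966 CPM in libraries numbered 1 and 2 and at most 0.338 CPM in those numbered 3, which the labels do not mention. Of 10 macrophage markers in the tables none was at 0 throughout. With oxLDL 0 rose and 2 fell in the edgeR test given below, against 1.91% and 3.98% of all genes. Their summed level was 36335, 27429 and 13026 CPM in untreated libraries 1, 2 and 3. It was 16219.9, 9233 and 11394 CPM with oxLDL, lower in every pair with groups that overlapped. All 13 erythroid markers stayed under 1 CPM in every library and 8, among them Slc4a1, were at 0 in all. The summed level of 5 mast cell and basophil markers was 3.03, 7.69 and 22.6 CPM untreated and 23.4, 26.6 and 36.7 CPM with oxLDL, higher in every pair with groups that did not overlap. Nearly all of it was Kit, a receptor gene, the other 4 staying under 1 CPM, and its part in the results was not tested. In bulk RNA, fewer cells of a type and less RNA per cell cannot be told apart.

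With oxLDL, 2 of the 10 genes rose past the threshold, Hmox1 and Slc48a1, and 0 fell. The test was edgeR's quasi-likelihood test with the pair as a block, at a Benjamini-Hochberg adjusted p below 0.05 over all 11400 genes tested. In that fit 1.91% of all genes rose, 3.98% fell and 5.89% were called in either direction, and 7 members against 29.0% of all genes had an unadjusted p under 0.05. Without the block 0 members and 0 genes passed, while 4 members and 14.7% of all genes had an unadjusted p under 0.05. Without pair 3, 6 members passed as higher and 2 as lower, against 14.0% and 15.8% of all genes (29.9% in either direction). Without pair 1 or without pair 2, 0 members and 0 genes passed, with 5 and 3 members at an unadjusted p under 0.05. DESeq2 with the block called 6 members as higher and 1 as lower, against 6.17% and 10.1% of all genes (16.3% in either direction). A total of 7 members were higher with oxLDL in all 3 pairs, where 26.6% of all genes were, and 2 were lower in all 3 pairs, where 26.5% were. The median log2 fold change of the 10 was 0.77, and that of all genes tested was 0.01.

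**Figure D1:**
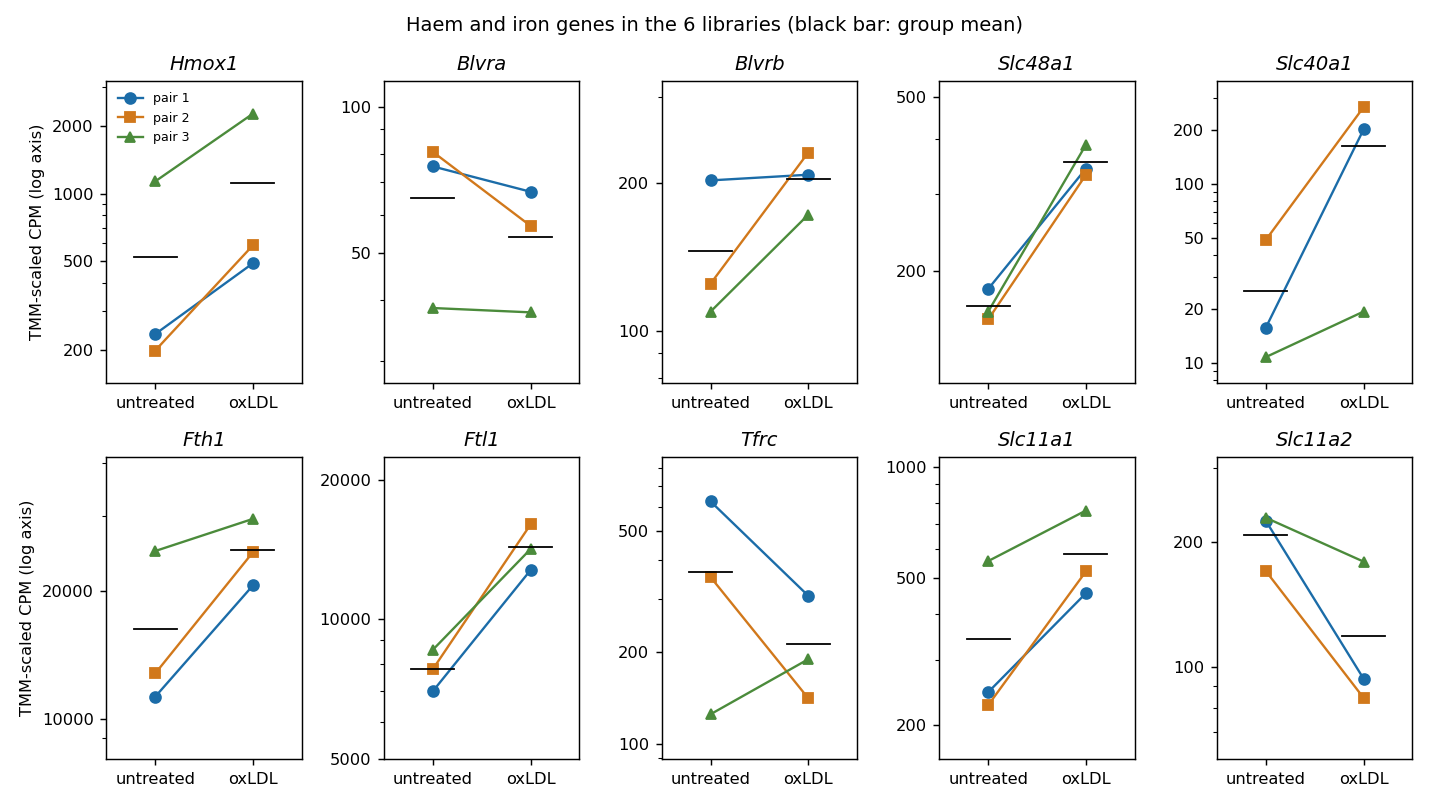
TMM-scaled CPM (log axis, own range per panel) of the 10 genes in each untreated and oxLDL library. Lines join libraries of the same number, and black bars are group means (n = 3). Slc48a1 and Ftl1 are the genes whose groups do not overlap, and Tfrc is the gene whose pairs move in opposite directions.

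Slc48a1, the lysosomal haem exporter, rose in every pair from like starting levels. It measured 182, 155 and 161 CPM in untreated libraries 1, 2 and 3 and 343, 332 and 388 CPM in the oxLDL libraries. Every oxLDL library was above every untreated library, and pair 3 had the highest ratio, 2.41-fold against 1.89 and 2.14-fold in pairs 1 and 2. The means were 166 ± 14.1 and 354 ± 30.2 CPM (SD, n = 3 per group). Its log2 fold change was 1.09 ± 0.14 (SE; edgeR adjusted p = 0.0310), and 0.0831 was the adjusted p without the block.

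Hmox1, the enzyme that opens the haem ring, rose in every pair from unequal starting levels. It measured 235, 199 and 1135 CPM in untreated libraries 1, 2 and 3 and 488, 588 and 2280.5 CPM with oxLDL. The groups overlapped, since untreated library 3 was higher than oxLDL libraries 1 and 2. Within pairs the ratio was 2.07, 2.96 and 2.01-fold. The log2 fold change with the block was 1.21 ± 0.20 (edgeR adjusted p = 0.0443). Without the block the standard error was 0.93 in place of 0.20 and the adjusted p was 0.635.

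Neither biliverdin reductase gene passed the threshold. Blvrb, which encodes a flavin reductase that also acts on biliverdin, measured 203, 125 and 109 CPM untreated and 208, 231 and 172 CPM with oxLDL. Pair 1 was nearly level (1.03-fold) and pairs 2 and 3 were 1.85 and 1.58-fold higher, and the log2 fold change of 0.53 ± 0.20 did not pass (edgeR adjusted p = 0.163, unadjusted 0.0452). Blvra, the main adult form of the enzyme, measured 75.5, 80.8 and 38.5 CPM untreated and 66.9, 56.9 and 37.7 CPM with oxLDL. All 3 pairs were lower, by little in pair 3, and the log2 fold change of -0.24 ± 0.13 did not pass either (edgeR adjusted p = 0.293). Blvra and Blvrb passed in none of the 17 alternative fits.

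Ferritin mRNA was among the most abundant in these cells. Fth1, the heavy chain that oxidises iron, ranked between the first and the third of all genes by counts in every library, and Ftl1, the light chain that helps form the iron core, ranked between the third and the ninth. Fth1 measured 11252, 12763 and 24767 CPM in untreated libraries 1, 2 and 3 and 20558, 24609 and 29479.9 CPM with oxLDL. Untreated library 3 was already at the level of oxLDL library 2, so the groups overlapped, and its pair differed by 1.19-fold where pairs 1 and 2 differed by 1.83 and 1.93-fold. The log2 fold change was 0.69 ± 0.30 and did not pass (edgeR adjusted p = 0.207). Ftl1 measured 6991, 7801 and 8589 CPM untreated and 12763, 16014 and 14169.6 CPM with oxLDL. Its groups did not overlap, the means were 7794 ± 799 and 14315 ± 1631 CPM (SD, n = 3), and its log2 fold change of 0.88 ± 0.24 also missed the threshold (edgeR adjusted p = 0.0975). In all, 2 of 10 members had oxLDL libraries all above the untreated ones, against 10.8% of all genes, and 0 had them all below, against 10.2%.

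Together the ferritin chains took 1.70%, 1.98% and 3.33% of all counts in untreated libraries 1, 2 and 3 and 3.44%, 4.32% and 4.42% with oxLDL. Every oxLDL library was above every untreated one, by 0.11 percentage points at the closest, between oxLDL library 1 and untreated library 3. The mean share was 2.34 ± 0.87% untreated and 4.06 ± 0.54% with oxLDL (SD, n = 3), a difference of 1.72 percentage points with an exact two-sided permutation p of 0.1, the smallest that 3 against 3 allows. Fth1 gave 1.61, 1.64 and 2.88 counts per Ftl1 count in untreated libraries 1, 2 and 3 and 1.61, 1.54 and 2.08 with oxLDL. The ratio was highest in both libraries numbered 3, and pairs 1 and 2 were almost level. The difference in log2 ratio was -0.19 (exact two-sided permutation p = 0.6). Both permutation tests took the 6 libraries as unmatched and ignored the pairs, unlike the blocked edgeR fit. Fthl17, the other row of the tables with a symbol starting with Fth or Ftl, had 0 counts. Ftmt, mitochondrial ferritin, also had a row, did not pass the filter on low counts and was not added here. Reads of ferritin pseudogenes that have no row of their own cannot be told apart from those of Fth1 and Ftl1, although the counts of both were whole in all 6 libraries.

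**Figure D2:**
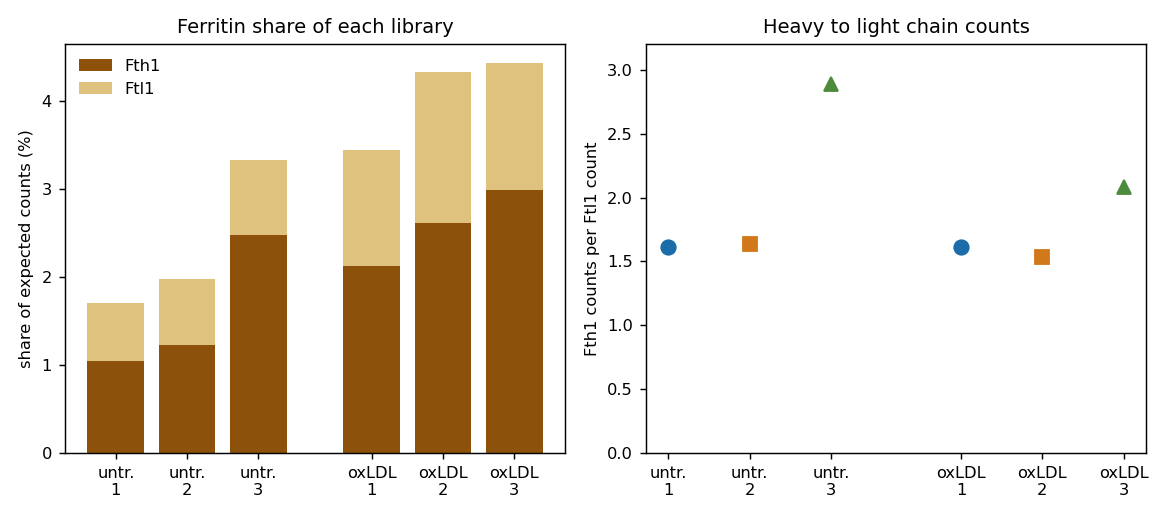
Left, share of each library's expected counts (%) taken by Fth1 and Ftl1, stacked (untr., untreated), from 1.70% in untreated library 1 to 4.42% in oxLDL library 3. Right, Fth1 counts per Ftl1 count in the same libraries, between 1.54 and 1.64 in pairs 1 and 2 and at 2.88 and 2.08 in pair 3.

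Slc40a1, ferroportin and the only known iron exporter of animal cells, had the largest fold change of the set and the widest spread. It measured 15.7, 48.6 and 10.7 CPM in untreated libraries 1, 2 and 3 and 201, 268 and 19.3 CPM with oxLDL. The increase was 12.8 and 5.52-fold in pairs 1 and 2 and 1.80-fold in pair 3, where oxLDL left the gene below untreated library 2. The log2 fold change was 2.37 ± 0.59 and missed the threshold (edgeR adjusted p = 0.0840). Without pair 3 it was 3.05 ± 0.34 (edgeR adjusted p = 0.00722).

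The iron importer Tfrc moved in opposite directions in the pairs. It measured 624, 353 and 125 CPM in untreated libraries 1, 2 and 3 and 307, 142 and 190.0 CPM with oxLDL. Pairs 1 and 2 were lower with oxLDL, at 0.491 and 0.401 of the untreated level, while pair 3 was 1.51-fold higher. Across the 3 pairs the log2 fold change was -0.60 ± 0.42 (edgeR adjusted p = 0.394). Without pair 3 it was -1.16 ± 0.14 (edgeR adjusted p = 0.00446). Whether pair 3 responded differently was not tested, because a pair held 1 library per group.

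The metal transporters of the NRAMP family went opposite ways. Slc11a1 measured 245, 226 and 556 CPM untreated and 455, 521 and 763 CPM with oxLDL. It was higher with oxLDL in every pair, by 1.86, 2.31 and 1.37-fold, and untreated library 3 lay above oxLDL libraries 1 and 2. Slc11a2 measured 224, 170.0 and 228 CPM untreated and 93.9, 84.5 and 179 CPM with oxLDL. It was lower with oxLDL in every pair, at 0.419, 0.497 and 0.785 of the untreated level, and oxLDL library 3 lay above untreated library 2. Neither passed: the log2 fold change was 0.85 ± 0.20 for Slc11a1 (edgeR adjusted p = 0.0769) and -0.87 ± 0.20 for Slc11a2 (edgeR adjusted p = 0.0736). The counts of Slc11a2 were not whole in all 6 libraries and those of Slc11a1 not in 2, so some of their reads were shared with other genes.

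**Figure D3:**
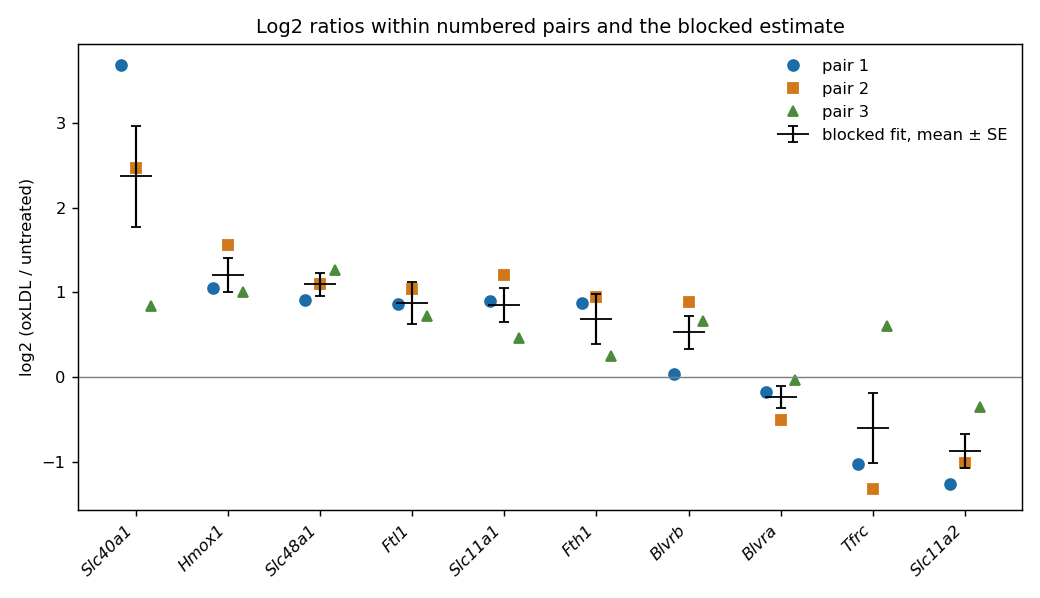
Log2 ratio of oxLDL to untreated CPM within each numbered pair (symbols) and the estimate of the blocked edgeR fit with its standard error (black), ordered by that estimate. The ratios of Slc48a1 run from 0.92 to 1.27 and those of Hmox1 from 1.01 to 1.56, whereas the ratios of Slc40a1 run from 0.85 to 3.68 and those of Tfrc from -1.32 to 0.60.

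In most of these genes the untreated library of pair 3 differed from the mean of the other untreated libraries. It also stood apart across all genes, as given above, and the share of all genes that differed this far was not computed. Hmox1 stood at 5.23 times the mean of untreated libraries 1 and 2, Slc11a1 at 2.36 times and Fth1 at 2.06 times. Tfrc stood at 0.257, Slc40a1 at 0.334 and Blvra at 0.493 of that mean. Slc48a1 (0.959), Slc11a2 (1.16) and Ftl1 (1.16) were close to it, and Blvrb stood at 0.668. Of these, Slc48a1 and Ftl1 had groups that did not overlap, while those of Slc11a2 and Blvrb overlapped. Untreated libraries 1 and 2 differed from each other as well, at 15.7 and 48.6 CPM for Slc40a1, 624 and 353 for Tfrc and 203 and 125 for Blvrb. As a single library, untreated library 3 allows no test. With pair 3 left out, Hmox1, Slc48a1, Slc40a1, Fth1, Ftl1 and Slc11a1 passed as higher and Tfrc and Slc11a2 as lower in edgeR with the block, over 2 pairs. In that fit 14.0% of all genes passed as higher and 15.8% as lower.

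The rest of the pathway was described with 7 lists of 89 genes, of which 88 had a row and 69 were tested. In the blocked edgeR fit 1 rose and 2 fell, against 5.89% of all genes called, and the median log2 fold change was 0.14. Without pair 3, 18 passed as higher and 9 as lower, against 14.0% and 15.8% of all genes. Without the block, and without pair 1 or pair 2, 0 passed. The gene that rose was Abcb6, an ABC transporter of porphyrins, which measured 9.16, 10.5 and 10.8 CPM untreated and 32.4, 42.0 and 20.03 CPM with oxLDL (log2 fold change 1.58 ± 0.26, edgeR adjusted p = 0.0458). Those that fell were Lcn2 and Hp, which encode secreted proteins that bind siderophores and free haemoglobin.

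**Figure D4:**
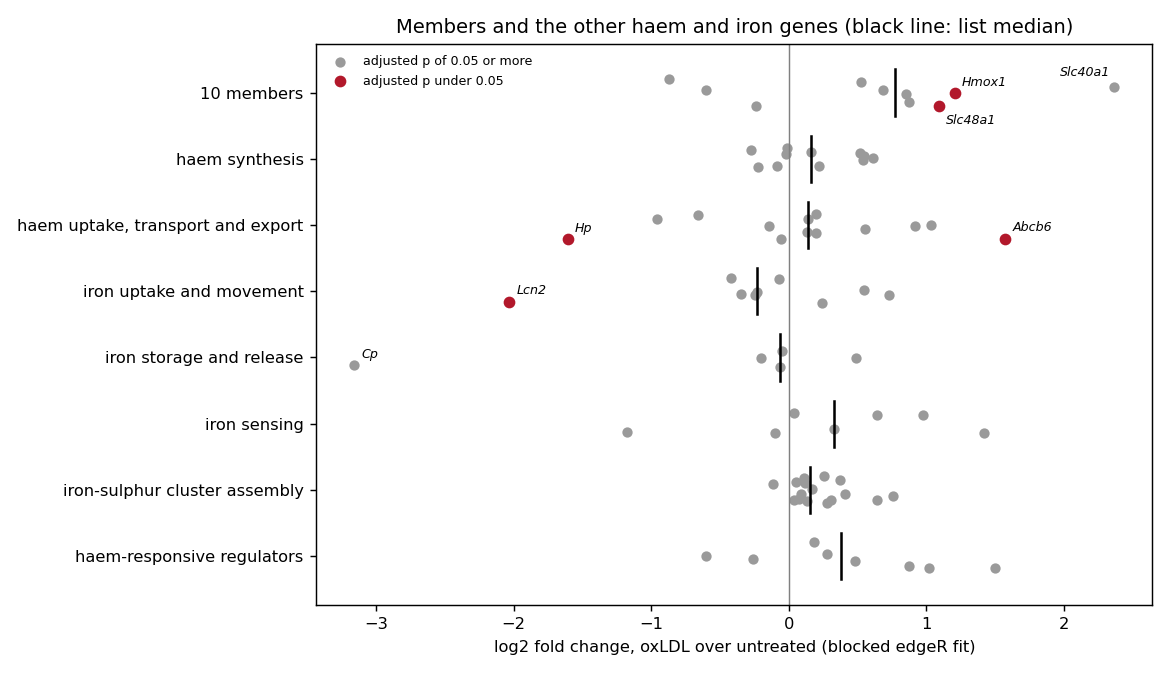
Log2 fold change of oxLDL over untreated in the blocked edgeR fit for the 10 members and the 7 lists of other haem and iron genes. Each point is a gene, red where the adjusted p was below 0.05, and black lines are list medians, which lie between -0.23 and 0.38 for the other lists and at 0.77 for the members.

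Of 13 tested genes of haem uptake, transport and export, 1 rose, 1 fell and 11 did not pass, with a median log2 fold change of 0.14. Mfsd7b, the older symbol of the haem exporter gene Flvcr1, measured 73.2, 90.6 and 245 CPM in untreated libraries 1, 2 and 3 and 204, 218 and 312 CPM with oxLDL (log2 fold change 1.03 ± 0.27, edgeR adjusted p = 0.0867). Hmox2, the constitutive haem oxygenase, went the other way from Hmox1: it measured 189.9, 182 and 87.0 CPM untreated and 86.2, 73.6 and 64.8 CPM with oxLDL. Its groups did not overlap, with oxLDL lower, which held for 10.2% of all genes. Its estimate of -0.96 ± 0.20 missed the threshold (edgeR adjusted p = 0.0627). Cd163, the haemoglobin scavenger receptor, was at most 4.63 CPM in any library. Hp measured 4.89, 1.80 and 69.1 CPM untreated and 1.95, 0.465 and 21.7 CPM in the oxLDL libraries, at a log2 fold change of -1.61 ± 0.17 (adjusted p = 0.0286 in edgeR).

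Haem synthesis genes differed by small amounts. Of 11 tested genes 0 passed in the blocked edgeR fit, and the median log2 fold change was 0.16. An unadjusted p under 0.05 was found for 4, against 29.0% of all genes, and DESeq2 called 1, against 16.3%. Fech, ferrochelatase, which inserts iron into protoporphyrin, measured 40.7, 40.4 and 42.9 CPM untreated and 60.5, 64.2 and 57.3 CPM with oxLDL. Its groups did not overlap, with oxLDL higher, which held for 10.8% of all genes. The estimate of 0.55 ± 0.11 missed the threshold (edgeR adjusted p = 0.0595). Cpox, Alad and Urod, enzymes of earlier steps, gave 0.61 ± 0.15, 0.54 ± 0.16 and 0.52 ± 0.12 on the log2 scale, none past the threshold. Iron-sulphur cluster assembly moved little: 0 of 16 passed and the median log2 fold change was 0.15. An unadjusted p under 0.05 was found for 4 and DESeq2 called 1, against the same 29.0% and 16.3% of all genes. The log2 fold change was positive for 15 of the 16, and for 5861 of all 11400 genes tested. Hspa9, the mitochondrial chaperone of cluster transfer, had the largest value there (0.76 ± 0.21), followed by Bola3 (0.64 ± 0.18), Hscb (0.41 ± 0.15) and Cisd2 (0.37 ± 0.17).

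Genes of iron uptake and movement other than the members gave 1 fall and 8 that did not pass, with a median log2 fold change of -0.23. Lcn2 measured 7.09, 3.81 and 945 CPM in untreated libraries 1, 2 and 3 and 1.68, 0.929 and 237 CPM with oxLDL. It stood at 0.237, 0.244 and 0.251 of the untreated level in pairs 1, 2 and 3, although pair 3 stood far above the others in both groups (log2 fold change -2.03 ± 0.14, edgeR adjusted p = 0.0278). Granulocytes also make Lcn2 and Hp. The summed level of 8 neutrophil markers was 13.6, 37.0 and 7.43 CPM untreated and 5.50, 1.33 and 4.44 CPM with oxLDL, lower in each pair. These levels were low: 3 of the 8 markers stayed under 1 CPM in every library. Of the 4 that were tested 0 rose and 0 fell in the blocked edgeR fit, against 1.91% and 3.98% of all genes. Lcn2 and Hp were highest in pair 3 in both groups, and the marker sum was highest in untreated library 2. The part of granulocytes in the levels and falls of Lcn2 and Hp was not tested. Mcoln1, the lysosomal channel that releases iron, had a value of 0.73 ± 0.15 (edgeR adjusted p = 0.0595), the mitochondrial iron importer Slc25a37 one of 0.55 ± 0.13 and Slc39a8 one of -0.42 ± 0.16, and none of them passed. Trf (transferrin, -0.25 ± 0.30) and Steap3 (an endosomal ferrireductase, 0.25 ± 0.37) did not pass.

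Among storage and release genes 0 of 5 passed in the blocked edgeR fit (1 had an unadjusted p under 0.05, and DESeq2 called 1), and among sensing genes 0 of 7 (2 and 2). Over all genes the shares were 29.0% with an unadjusted p under 0.05 and 16.3% called by DESeq2. Cp, ceruloplasmin, the ferroxidase that works beside ferroportin, measured 331, 187 and 189 CPM untreated and 18.5, 9.16 and 114 CPM with oxLDL. Its groups did not overlap, with oxLDL lower, which held for 10.2% of all genes. Its log2 ratios were -4.16, -4.35 and -0.73 in pairs 1, 2 and 3. The fit across the 3 pairs gave -3.16 ± 0.90 (edgeR adjusted p = 0.104), and without pair 3 it gave -4.24 ± 0.14 (edgeR adjusted p = 0.000411). Heph, the related membrane ferroxidase, was at most 0.0719 CPM in any library. Ncoa4, the receptor that delivers ferritin to lysosomes, had a value of -0.05 ± 0.23, and the iron chaperones Pcbp1, Pcbp2 and Pcbp3 had values of -0.06 ± 0.12, -0.20 ± 0.14 and 0.49 ± 0.42. None of these passed.

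The transcripts of the 2 iron regulatory proteins differed little in group mean. The level of Aco1 (IRP1) was 65.9 ± 3.27 CPM untreated and 67.8 ± 5.05 CPM with oxLDL (SD, n = 3). Ireb2 (IRP2) stood at 106 ± 5.12 and 99.7 ± 12.7 CPM. Their log2 fold changes were 0.04 ± 0.11 and -0.10 ± 0.13. Fbxl5, the iron sensor that marks IRP2 for breakdown, had a value of 0.33 ± 0.18, and the edgeR adjusted p of these 3 genes was 0.299 or more. In pairs 1, 2 and 3 Fbxl5 stood at 0.960, 1.19 and 1.73 of the untreated level. Hfe, the haemochromatosis protein gene, measured 69.1, 78.0 and 13.1 CPM untreated and 40.1, 22.3 and 6.99 CPM in the oxLDL libraries. It was lower in every pair and missed the threshold (-1.17 ± 0.24, edgeR adjusted p = 0.0618). The BMP pathway genes Neo1 (1.42 ± 0.27) and Smad7 (0.64 ± 0.47) and the hypoxia factor Epas1 (0.98 ± 0.43) were low and did not pass. Hamp, the hormone hepcidin, was at 0 in 4 libraries and reached 1.46 CPM in oxLDL library 3.

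Regulators that respond to haem gave 0 calls among 8 in the blocked edgeR fit. An unadjusted p under 0.05 was found for 3, against 29.0% of all genes, and DESeq2 called 2, against 16.3%. Bach1, the repressor that haem displaces from the Hmox1 gene, measured 322, 353 and 169.7 CPM untreated and 249.9, 205 and 109 CPM with oxLDL. It was lower in all 3 pairs, and the estimate of -0.60 ± 0.15 missed the threshold (edgeR adjusted p = 0.0790). Nfe2l2, which encodes the activator NRF2, had a value of 0.28 ± 0.15. Maff, which encodes a small MAF partner, measured 0.482, 0.719 and 13.2 CPM untreated and 2.28, 2.66 and 26.3 CPM with oxLDL, and it did not pass (edgeR adjusted p = 0.0621). Bach2 stayed under 4.52 CPM (1.02 ± 0.56, not past the threshold). Spic, the factor of iron-recycling macrophages of the spleen, measured 0.964, 1.44 and 14.3 CPM untreated and 1.01, 1.39 and 47.8 CPM with oxLDL. Pairs 1 and 2 were level and pair 3 was high and higher with oxLDL, and the gene did not pass (0.87 ± 0.44, edgeR adjusted p = 0.264).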

How the data were processed

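Per the labels' protocols, poly(A) RNA of 6 libraries was sequenced with a stranded kit. The annotation and the strand setting of the counting: not given in the sources used here. Per gene, the authors deposited expected counts per gene, and the submitters' processing notes list Bowtie2 2.1.0, RSEM 1.2.15, edgeR and the human build hg19, so no coordinates were taken from them. A further table deposited by the authors holds the same libraries as a TMM-normalised signal in CPM, which its file name states. In each library 100% of its values came out as whole reads (tolerance 0.005), and edgeR on those reads called 672 genes, as on the expected counts.

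Expected counts were rounded. Genes passing filterByExpr (minimum count 10, minimum total 15) were scaled with TMM and tested with the quasi-likelihood test of edgeR 4.0.16 (R 4.3.3), with the library number as a block. Same-numbered libraries deviated together from their group means (r = 0.66, 0.45 and 0.70 across 11400 genes, limit 0.1), but so did untreated 2 with oxLDL 1 (0.63, above its own partner) and untreated 1 with oxLDL 2 (0.20). The check therefore sets pair 3 apart and does not tell pairs 1 and 2 from each other. The labels do not say whether replicates came from separate animals or cultures, and pair 3 differs from the others in Xist. With the block, p-values set a change against its scatter between the pairs. Without the block, they set it against the spread between libraries of a group. For pairs 1 and 2 either spread may be technical. The standard error is the estimate over the root of its F value. DESeq2 1.42.0 and limma 3.58.1 served as alternatives, with other scalings, filters and left-out libraries. The script was tested on simulated data.

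The members, the lists, the block and the tests were chosen with earlier results of these data known. All members were described. Of each list, genes past the threshold, the 4 largest changes and a fixed set of regulators and transporters were named. Symbols were matched as written or through an older symbol in RefSeq (Flvcr1 and Flvcr2).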

Additional observations from a re-analysis of the deposited data

How the results depend on the processing

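Without the replicate block 0 genes, 0 members and 0 other haem and iron genes passed, against 672, 2 and 3 with the pairing, while DESeq2 with the block called 1853, 7 and 15. For the other haem and iron genes limma-voom and the fit with no count filter called 5 each. Leaving out libraries, the counts ran from 0 to 3446 genes, from 0 to 8 members and from 0 to 27 other genes. The highest of each came without pair 3, and without pair 1 or pair 2 each was 0. Without the block, 31 genes passed without oxLDL library 3 and 737 without untreated library 3, when 1 member, Slc48a1, passed. All 10 members kept their direction in 17 alternatives each. The smallest value for Hmox1, 0.02, came without oxLDL library 3 and with no block, which left untreated library 3 unmatched. Slc48a1 ranged from 1.02 to 1.17, Slc40a1 from 1.67 to 3.62 and Tfrc from -1.19 to -0.18. The ferritin share differed by 1.41 to 2.04 percentage points and the heavy to light log2 ratio by -0.28 to -0.04 when a pair was left out, and the share by 1.75 points over totals without Rn45s. Among other genes, log2 fold changes changed sign when libraries were left out, over these ranges: Lcn2 -7.95 to 3.88, Hp -4.41 to 1.27, Spic -2.22 to 3.79, Maff -0.98 to 4.10, Cd163 -0.88 to 0.80, Trf -0.90 to 0.19, Slc25a37 -0.56 to 1.66, Ncoa4 -0.48 to 0.23, Smad7 -0.23 to 1.61, Ireb2 -0.21 to 0.026, Steap3 -0.13 to 0.74, Aco1 -0.051 to 0.11 and Fbxl5 -0.035 to 0.60. The cause of these changes was not tested. Fits without the block that leave out a single library compare unmatched cells. Genes near 0 CPM, such as Hamp and Heph, were below what this depth can compare. The alternative on recovered reads was chosen after seeing the data.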
